A study of Rattus norvegicus with 4 samples.

Results

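The genes described here are 10 transcripts of the integrated stress response that are controlled by, or act with, the transcription factor ATF4: Atf4, Atf3, Ddit3, Trib3, Ppp1r15a, Asns, Psat1, Chac1, Sesn2 and Ddit4. They were chosen by gene symbol, and each had 1 row among the 22714 genes of both input tables. In the m6A peak lists the same symbols were carried by 1 of 8192 peaks in the untreated list and 1 of 8183 peaks in the exposed list, in both cases a peak of Ddit3. The study grew rat hippocampal neurons in primary culture, with Ara-C added to hold back dividing cells, and sequenced RNA before (input) and after (IP) pull-down with an antibody against N6-methyladenosine (m6A), a methyl mark on adenosines of mRNA. The groups Ctrl_Input and Ctrl_IP were untreated, and BPA_Input and BPA_IP received 1 mM of the plasticiser bisphenol A (BPA) for 48 h. Exposure began on day 12 in vitro and is labelled as ending on day 13 for BPA_Input and day 14 for BPA_IP. For BPA_Input these days are shorter than the 48 h labelled for the same group, and the sources used here do not resolve this. No days in vitro are given for the untreated groups, so a difference in culture age cannot be told apart from the exposure. Each group was 1 library, so every difference below is one between 2 libraries, no test of the exposure was possible, and all errors cover read counting only. How many cultures or animals each library drew on is not given in the sources used here.

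In the integrated stress response, kinases that sense amino acid lack, misfolded protein, haem lack or viral RNA phosphorylate the initiation factor eIF2. General translation then slows, while Atf4 mRNA, through short upstream reading frames, is translated more. ATF4 protein binds composite C/EBP-ATF elements in target genes for amino acid synthesis, amino acid import and redox balance, and also induces Ddit3, Trib3 and Ppp1r15a. Since ATF4 is set largely at translation, the level of its mRNA and the level of its target mRNAs are separate readouts.

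The promoters of 4 genes are shown because Trib3 and Ddit4 had the largest positive ratios between the inputs, while Trib3, Chac1 and Ppp1r15a hold a motif of this pathway near their start site. The sequences are the 250 bases before each start site in RefSeq's GRCr8 assembly, written 5′ to 3′ along the gene. Capitals mark a match to a searched motif.
Trib3, chr3:161275534-161275783, minus strand: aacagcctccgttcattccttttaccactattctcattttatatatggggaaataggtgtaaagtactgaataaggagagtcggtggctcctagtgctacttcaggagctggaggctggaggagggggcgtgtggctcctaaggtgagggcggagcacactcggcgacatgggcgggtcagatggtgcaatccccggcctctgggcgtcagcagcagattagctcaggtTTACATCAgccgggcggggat
Chac1, chr3:126795881-126796130, plus strand: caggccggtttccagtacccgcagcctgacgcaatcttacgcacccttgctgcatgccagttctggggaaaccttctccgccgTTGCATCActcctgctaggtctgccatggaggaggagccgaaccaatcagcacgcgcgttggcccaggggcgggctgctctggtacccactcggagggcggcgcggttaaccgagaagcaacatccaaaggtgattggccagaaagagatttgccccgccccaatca
Ppp1r15a, chr1:105139597-105139846, minus strand: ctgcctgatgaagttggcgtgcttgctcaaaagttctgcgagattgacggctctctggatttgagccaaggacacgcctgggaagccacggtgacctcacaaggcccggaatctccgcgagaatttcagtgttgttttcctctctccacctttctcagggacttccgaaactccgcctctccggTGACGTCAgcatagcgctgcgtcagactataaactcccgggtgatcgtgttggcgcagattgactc
Ddit4, chr20:28437038-28437287, minus strand: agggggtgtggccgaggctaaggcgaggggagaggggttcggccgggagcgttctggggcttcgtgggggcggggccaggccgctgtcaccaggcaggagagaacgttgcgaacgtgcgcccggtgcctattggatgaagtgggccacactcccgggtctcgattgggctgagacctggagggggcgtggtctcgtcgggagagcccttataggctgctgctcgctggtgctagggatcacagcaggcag
The motifs were searched on both strands from 250 bases before to 50 bases after each start site, and did not overlap one another in these genes. The composite element, searched as TGATGNAA, was found in Trib3 (on the opposite strand, bases -21 to -14) and in Chac1 (opposite strand, -167 to -160), 2 of the 9 genes in the promoter table. Of all 33469 promoters, 3.98% held it. The cAMP response element TGACGTCA, which reads the same on both strands, was found in Ppp1r15a (-66 to -59) and in 1.83% of all promoters. The endoplasmic reticulum stress element, a CCAAT box and a CCACG box held 9 bases apart, was found in none of the 9 and in 0.0657% of all promoters. No entry was found for Atf3. A match describes letters only, and Ddit4, Atf4, Asns, Psat1, Sesn2 and Ddit3 had no match in this window.

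The input libraries held 9837064 (Ctrl) and 9774929 (BPA) deposited counts. Markers of neurons were present, with 9 of 10 matched to the tables, none at 0 and a summed level of 1539 FPKM (a level scaled for transcript length and library size) in the Ctrl input and 1674 in the BPA input. All 8 astrocyte markers were present too, and their summed level was higher, at 7223 and 6660 FPKM. Counting intervals lay below 1 for 7 of the 8 astrocyte markers (Aldh1l1 was the exception) and above 1 for 6 of the 9 neuronal ones, while Map2, Gad1 and Gad2 had fewer counts in the BPA input with intervals that held 1. Over all genes 9.13% had an interval below 1 and 9.19% one above 1. Among genes averaging over 3000 counts, as most of these astrocyte markers did, 52.7% left out 1 on either side. The central 90% of their log2 ratios ran from -0.16 to 0.12. Of the markers at that depth, Gja1 (-0.17), S100b (-0.17), Syp (0.13) and Slc17a7 (0.24) lay outside that range. At lower depths the neuronal Rbfox3 (0.29, range -0.22 to 0.22) and Camk2a (0.23, range -0.17 to 0.16) lay outside the ranges of their own depths. Sox9, Aldh1l1, Gad1 and Gad2 lay inside theirs. Sums were far lower for oligodendrocyte markers (155 and 158 FPKM, Mog at 0 in Ctrl), endothelial and fibroblast markers (56.5 and 64.8, Cldn5 at 0 in both) and microglia markers (42.8 and 42.3, none at 0). Among these Col1a2, a collagen gene of fibroblasts, was at 2.15-fold (1.84 to 2.52). Its list had no common direction, with 2 of the 4 measured genes higher and 2 lower. In it Col1a1 was at 1.06-fold, Pdgfrb at 0.978-fold and Flt1 at 0.839-fold. On fewer counts, the oligodendrocyte marker Mag (2.18-fold, 1.09 to 4.59) and the microglia marker Tmem119 (1.68-fold, 1.04 to 2.76) also had intervals above 1. The libraries therefore held glial RNA beside that of the labelled neurons, and the summed astrocyte level was lower and the summed neuronal level higher in the BPA input. Its part in the differences below was not tested, and fewer cells of a type cannot be told apart from less RNA per cell.

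Per length, the 10 genes covered a wide range of levels and kept nearly the same order in both inputs. Psat1 stood highest, at 166 FPKM in the Ctrl input (rank 436 of 22714 genes) and 168 in the BPA input. Atf4 followed at 153 FPKM in both libraries. Their counting intervals overlapped in each library. Ddit4 had 92.9 and 113 FPKM and Asns 58.1 and 61.3, each apart from its neighbours in that order. Sesn2 (20.7 and 23.1 FPKM) and Ddit3 (17.4 and 18.7) had overlapping intervals, as had Chac1 (11.3 and 10.6) and Ppp1r15a (11.0 and 11.1). The lowest were Atf3, at 4.88 and 3.73 FPKM, and Trib3, at 3.28 and 5.40. Only the order within these last pairs changed: Ppp1r15a passed Chac1 and Trib3 passed Atf3 in the BPA input, in both cases with overlapping intervals in each library. Psat1, Atf4, Ddit4 and Asns were thus abundant without exposure, while the stress-inducible Atf3 and Trib3 were near the low end, at or above 23.4% and 17.1% of the 13006 genes that averaged 10 counts or more over the inputs.

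**Figure D1:**
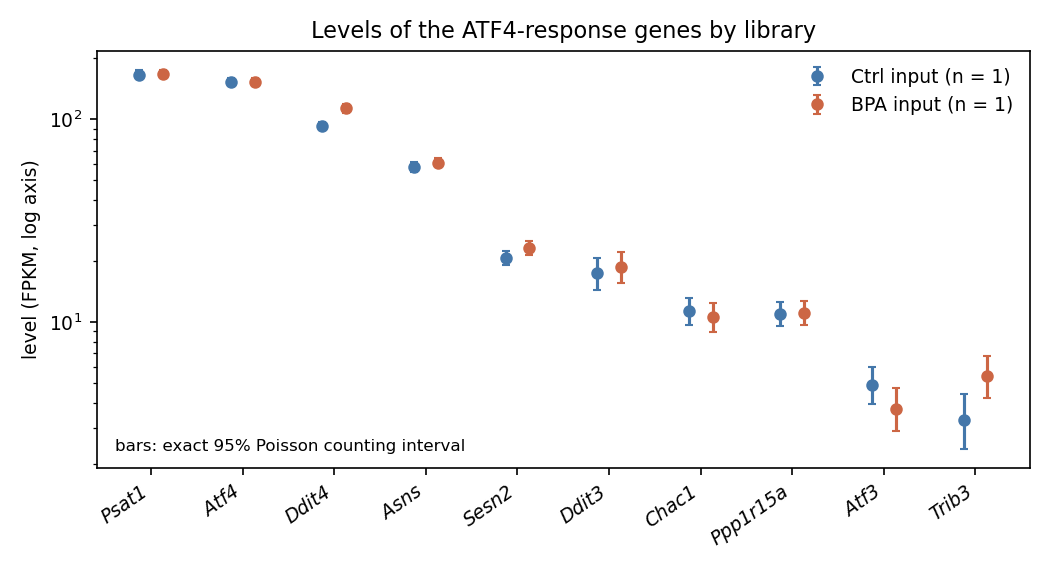
Level of each gene in FPKM (log axis) in the Ctrl input (blue) and the BPA input (orange), 1 library each, ordered by the Ctrl level. Bars are exact 95% Poisson counting intervals; points run from 166 FPKM for Psat1 to 3.28 for Trib3 in the Ctrl input, and Ddit4 and Trib3 show the widest separation upward in the BPA input.

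Between the inputs the response genes lay close together, and none differed by 2-fold. Of the 10 genes, 0 reached a log2 ratio of 1 in size, against 2.02% of the 13006 genes and 0.473% of the 9727 genes with a mean count within the range of the 10 (57.5 to 2010). With 10 genes, 0 is near that background. In the BPA library 8 had more counts and 2 had fewer. The median log2 ratio, computed as log2((BPA + 1)/(Ctrl + 1)), was 0.05, beside 0.0019 over all 13006 genes, of which 50.4% had a positive ratio. Counting intervals of the ratio lay above 1 for 2 genes, Trib3 and Ddit4, and below 1 for 0. Over all genes 9.19% had an interval above 1 and 9.13% one below 1, so intervals from counting alone leave out 1 more often than their nominal level. The spread of all genes with like counts is therefore used in the text for Atf4, Trib3, Ddit4 and Sesn2. It is drawn for each of the 10 genes in the plot of log2 ratios by gene. For the other response genes, and for most pathway genes named below, the text gives the counting interval only.

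Among the transcription factors, Atf4 had 2006 counts in the Ctrl input and 2014 in the BPA input. These values were nearly equal, at 1.00-fold (95% interval 0.943 to 1.07, log2 ratio 0.0058), and 95.1% of the 1798 genes with a mean of 1000 to 3000 counts had a ratio at least as far from 0. Ddit3, which encodes the pro-apoptotic factor CHOP, had 122 and 132 counts. It was at 1.08-fold (0.836 to 1.40), with an interval that held 1. The gene Mars has the same locus on the other strand in the input tables, and since counting by strand is not stated there, a share of Mars reads in the counts and FPKM of Ddit3 was not tested. Atf3, a stress-induced repressor and activator of the same family, had 90.9 and 69.5 counts. It was the lowest ratio of the 10, at 0.765-fold (0.550 to 1.06), and its interval also held 1. All 3 intervals held 1, and at the depth of Atf3 and Ddit3 a difference within these intervals was not detectable.

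Of the negative regulators, Trib3 was higher in the BPA library and Ppp1r15a was near equal. Trib3, a pseudokinase that binds ATF4 and dampens its activity, had 43.4 counts in the Ctrl input and 71.6 in the BPA input. It had the largest ratio of the 10, at 1.65-fold (1.11 to 2.47, log2 ratio 0.71). The central 90% of the 2193 genes with a mean of 30 to 100 counts ran from -0.62 to 0.65, so Trib3 lay just outside, and 6.93% of those genes were at least as far from 0. Ppp1r15a encodes GADD34, the subunit that brings a phosphatase to eIF2 and ends the response. It had 219 and 222 counts and was at 1.01-fold (0.835 to 1.23). Its constitutive relative Ppp1r15b was also near equal, at 1960 and 2006 counts (1.02-fold, 0.960 to 1.09). Of the relatives of Trib3, Trib1 had 252 counts in both libraries and Trib2 had 1517 and 1542. Their intervals held 1, with ratios of 1.00-fold (0.836 to 1.20) and 1.02-fold (0.945 to 1.09). Per length, Trib3 was the scarcest of the 3, since Trib1 stood at 12.9 FPKM in both libraries and Trib2 at 43.7 and 44.4.

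The metabolic targets were near equal. Asns, the enzyme that makes asparagine from aspartate, had 1293 counts in the Ctrl input and 1366 in the BPA input, 1.06-fold (0.977 to 1.14). Psat1, the transaminase of serine synthesis, had 1664 and 1682 counts, 1.01-fold (0.944 to 1.08). Its pathway partners lay on either side of 1: Phgdh, the first enzyme of serine synthesis, had 2123 and 2225 counts (1.05-fold, 0.987 to 1.11) and Psph, the last, had 208 and 193 (0.929-fold, 0.759 to 1.14). Chac1, which degrades glutathione, had 170 and 158 counts and was at 0.934-fold (0.746 to 1.17). All 5 of these intervals held 1.

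Both genes that restrain the growth kinase mTORC1 had more counts in the BPA library, and for Ddit4 the interval left out 1. Ddit4 encodes REDD1, which acts through the TSC complex. It had 1549 counts in the Ctrl input and 1890 in the BPA input, 1.22-fold (1.14 to 1.31, log2 ratio 0.29). The central 90% of the 1798 genes with 1000 to 3000 counts ran from -0.17 to 0.16, which placed Ddit4 outside, with 1.61% of those genes at least as far from 0. Sesn2, a leucine-binding stress protein that acts on the same kinase through the GATOR complexes, had 572 and 640 counts. Its ratio was 1.12-fold (0.996 to 1.25), so the interval just held 1, and the log2 ratio of 0.16 lay within the central 90% of genes with 300 to 1000 counts (-0.22 to 0.22). Its relatives did not follow one direction. Sesn3 was lower, with 4994 and 4312 counts (0.863-fold, 0.828 to 0.900), and Sesn1 had 451 and 470 (1.04-fold, 0.913 to 1.19).

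Summed over the 10 genes, counts went from 7728 to 8245, which was 0.0786% of the Ctrl library and 0.0843% of the BPA library. Of the difference of 516 counts, Ddit4 alone held 342. Without Ddit4 the sum was 1.03-fold. In all, 8 of the 10 genes lay within the central 90% of genes with like counts, a range that leaves out 10% of all genes by construction.

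**Figure D2:**
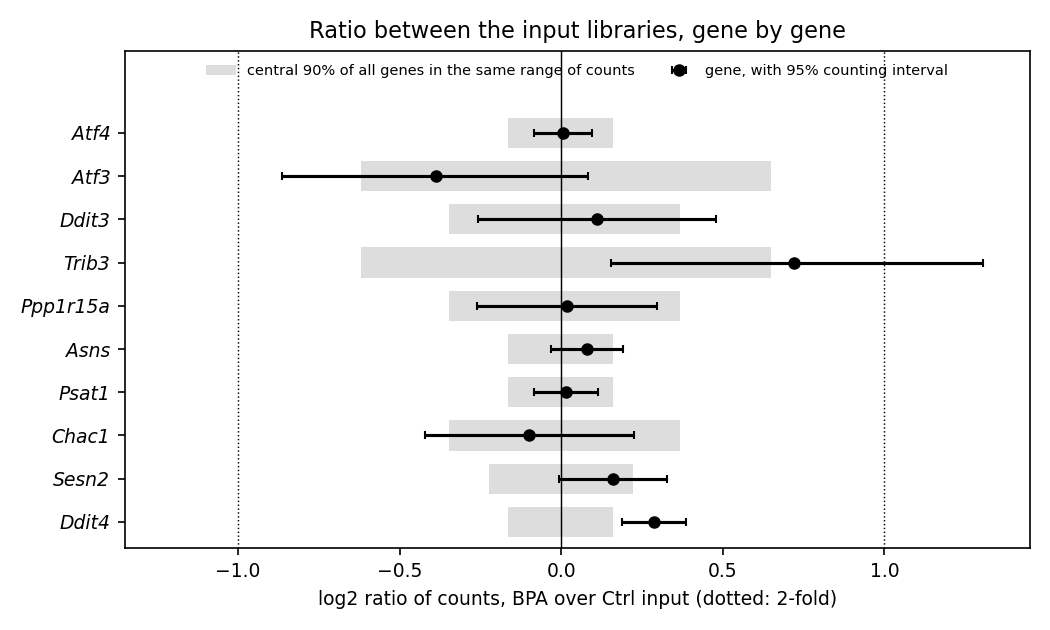
Log2 ratio of counts, BPA over Ctrl input, for each gene (points, no pseudocount, 1 library per group), with 95% counting intervals and, in grey, the central 90% of log2 ratios (pseudocount of 1) of all genes in the same range of counts. Trib3 and Ddit4 have intervals right of 0 and points outside the grey range; the other 8 points are inside it, and no point reaches the dotted 2-fold lines.

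Genes that act around these 10 were read from 7 lists holding 103 matched genes, 99 of which averaged 10 counts or more. Of the 99, 1 passed 2-fold, 16 had an interval above 1 and 6 one below 1, which together is 22.2% beside 18.3% of all genes. The median log2 ratio of the 99 was 0.04. The gene past 2-fold was Bcl2l11, which encodes the death protein BIM, with 17.2 counts in the Ctrl input and 5.11 in the BPA input (0.298-fold, 0.0859 to 0.841). Tnfrsf10b, which encodes a death receptor, had the largest ratio above 1 of the 99, with 21.2 and 39.9 counts (1.88-fold, 1.08 to 3.37). Both rest on few reads.

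Upstream of Atf4, a list of 15 genes held those for eIF2 kinases, eIF2 and its exchange factor eIF2B. It also held the kinase regulators Dnajc3, Gcn1l1 and Impact and the phosphatase subunit gene Ppp1r15b. The 15 genes had a median log2 ratio of -0.01, with 7 higher and 8 lower. Intervals lay below 1 for 2 of them and above 1 for 0. These were Eif2ak3, the PERK kinase of the endoplasmic reticulum, with 430 and 372 counts (0.865-fold, 0.750 to 0.998), and Dnajc3, which encodes the kinase inhibitor p58IPK, with 424 and 321 (0.757-fold, 0.652 to 0.878). Over all genes 9.13% had an interval below 1. The log2 ratio of Eif2ak3, -0.21, lay within the central 90% of genes with 300 to 1000 counts (-0.22 to 0.22). That of Dnajc3, -0.40, lay outside this range. The eIF2B subunit genes Eif2b3 (1.13-fold, 0.885 to 1.44) and Eif2b4 (0.926-fold, 0.743 to 1.15) had intervals that held 1.

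The 11 measured partners and regulators of ATF4 had a median of 0.01, with 6 higher and 5 lower. Atf5, a close relative of Atf4 that is also translated under stress, was higher, with 3829 and 4287 counts (1.12-fold, 1.07 to 1.17). Creb1, a factor of activity-driven transcription, was lower, with 857 and 709 counts (0.828-fold, 0.748 to 0.916). The C/EBP factors Cebpb (1.38-fold, 0.920 to 2.09) and Cebpd (0.850-fold, 0.675 to 1.07) had intervals that held 1.

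The 3 target lists of amino acid supply had small positive medians. Their counts are to be read beside all genes, of which 50.4% had a positive ratio and 9.19% an interval above 1. Intervals left out 1 on either side for 26.9% of genes averaging 1000 to 3000 counts and for 52.7% of those above 3000. For amino acid synthesis and one-carbon metabolism the median was 0.12, with 12 of 14 genes higher, 3 intervals above 1 and 0 below. Cth, which makes cysteine, had 64.6 and 91.0 counts (1.41-fold, 1.01 to 1.97) and the transaminase Got1 had 964 and 1130 (1.17-fold, 1.07 to 1.28). The mitochondrial folate enzyme Mthfd1l (1.17-fold, 0.986 to 1.38) and the proline enzyme Pycr1 (0.801-fold, 0.548 to 1.17) had intervals that held 1. For amino acid transporters the median was 0.10, with 9 of 11 higher, 4 intervals above 1 and 0 below. Among them were Slc7a3, a carrier of cationic amino acids (113 and 154 counts, 1.37-fold, 1.06 to 1.76), Slc36a4 (258 and 325 counts, 1.26-fold, 1.06 to 1.49) and the leucine carrier Slc7a5 (3367 and 3619 counts, 1.07-fold, 1.02 to 1.13). Slc38a1, a glutamine carrier, was at 1.08-fold (0.972 to 1.20). For the synthetases that charge transfer RNAs, with the exporter Xpot, the median was 0.05, with 10 of 13 higher, 5 intervals above 1 and 0 below. The largest ratios were those of Mars (1.13-fold, 1.04 to 1.22), Yars (1.10-fold, 1.02 to 1.19), Lars (1.08-fold, 1.02 to 1.15) and Iars (1.08-fold, 0.989 to 1.18). No gene of these 3 lists passed 2-fold.

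Other targets of ATF4 and CHOP were listed together with the relatives Sesn1, Sesn3, Trib1 and Trib2. This list had a median of 0.02, with 11 of 18 higher, 3 intervals above 1 and 2 below. Over all genes 9.19% had an interval above 1 and 9.13% one below. The 2 below were those of Bcl2l11 and the relative Sesn3. Vegfa, the vascular growth factor, was at 1.14-fold (1.05 to 1.24), the lipoprotein receptor Vldlr at 1.10-fold (1.01 to 1.21) and the death gene Bbc3 at 1.27-fold (0.900 to 1.79). The log2 ratio of Vldlr, 0.14, lay within the central 90% of genes with 300 to 1000 counts (-0.22 to 0.22). That of Vegfa, 0.19, lay outside the range for 1000 to 3000 counts (-0.17 to 0.16). Genes of the IRE1 and ATF6 arms of the unfolded protein response had a median of 0.01, with 9 of 17 higher, 0 intervals above 1 and 1 below. That gene was the lectin chaperone Calr, with 5206 and 4882 counts (0.938-fold, 0.901 to 0.976). At that depth, above 3000 counts, 52.7% of all genes had an interval that left out 1 on either side. The log2 ratio of Calr, -0.09, lay within the central 90% of those genes (-0.16 to 0.12). Xbp1 (0.908-fold, 0.813 to 1.01), Dnajb9 (1.07-fold, 0.963 to 1.19) and Sdf2l1 (0.748-fold, 0.511 to 1.09) had intervals that held 1.

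**Figure D3:**
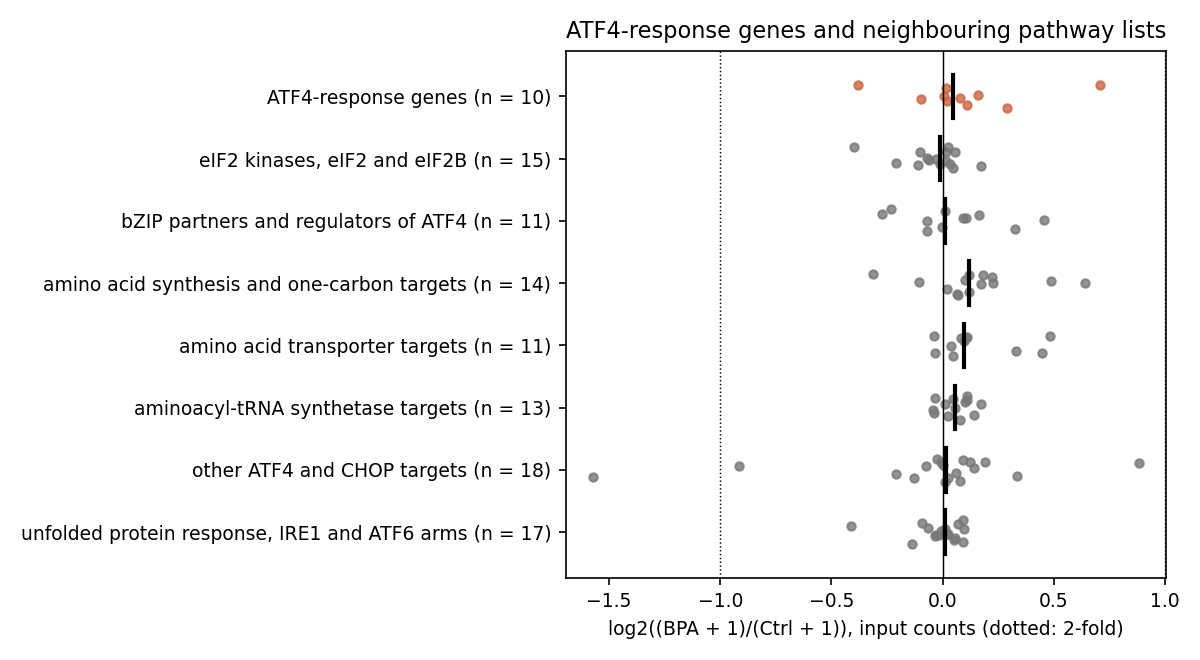
Log2((BPA + 1)/(Ctrl + 1)) of input counts for the 10 response genes (orange) and for the measured genes of 7 pathway lists (grey), 1 library per group, with black bars at the medians. Medians run from -0.01 for the eIF2 list to 0.12 for amino acid synthesis, and Bcl2l11 is the point left of the lower 2-fold line.

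The m6A peak lists named Ddit3 and no other of the 10 genes. By gene symbol or gene number, a listed peak was held by 1 of 10 response genes in each list, against 29.1% (Ctrl list) and 29.5% (BPA list) of the 13006 genes. Among the 9727 genes with a mean count within the range of the 10 (57.5 to 2010), the shares were 32.7% and 33.4%. With 10 genes the Wilson 95% interval of the share ran from 1.79% to 40.4%, which held the share of all genes. The abundant Atf4, Psat1, Ddit4 and Asns thus had no listed peak in either library, and no peak of any name lay over the loci of the 9 genes other than Ddit3. The lists hold part of the peaks that were called, so a gene without a listed peak is not shown to lack the mark.

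In the files' coordinates, whose genome build is not given in the sources used here, the Ddit3 peak covers chromosome 7, 70758664 to 70759220, and is 557 bases long. Its edges were identical between the lists. The Ddit3 locus is given there as chromosome 7, 70754398 to 70776456 on the plus strand, and the gene for the methionine transfer RNA synthetase, Mars, has the same locus on the minus strand. Mars is the neighbour of Ddit3 in the RefSeq GRCr8 gene table as well. The peak begins 4266 bases after the start of this shared locus and ends within the first 4823 of its 22059 bases. Since both genes carry the same edges, this length and place are not shown to be those of Ddit3 alone. The authors' list names Ddit3 and its transcript for it, but gives the peak no strand, so a part of its reads coming from Mars (1234 and 1390 input counts) was not tested. Its place in an exon or UTR was not analysed here.

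At the Ddit3 peak the authors' IP over input enrichment was 9.26-fold in the untreated list and 9.16-fold in the exposed one. The score, 10 times the negative log10 of the caller's p-value, was 30.3 and 325. Enrichment was thus nearly equal, and the score was 10.7 times as large in the BPA list. The false discovery rate, listed in percent, was at its highest possible value for both entries, so by that measure the peak had no support in either list. How many other peaks carry that value was not counted, and the rate was not used here. In the Ctrl list 52.9% of peaks had a higher score, and in the BPA list 16.8%. By fold enrichment 20.4% and 24.3% of peaks ranked higher. Among the 5708 peaks with the same edges in both lists, the median ratio of scores, BPA over Ctrl, was 1.05, and 2.22% had a ratio at least that of Ddit3. Of the 1001 such peaks with a Ctrl score of 20 to 50, the median BPA score was 32.1, the central 90% ran from 4.66 to 177, and 14 peaks reached that of Ddit3. A fold enrichment within 10% between the lists was seen for 1844 of the 5708 peaks, and 14 of these had a score ratio as large. The input counts of Ddit3, 122 and 132, lay within counting error of each other.

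**Figure D4:**
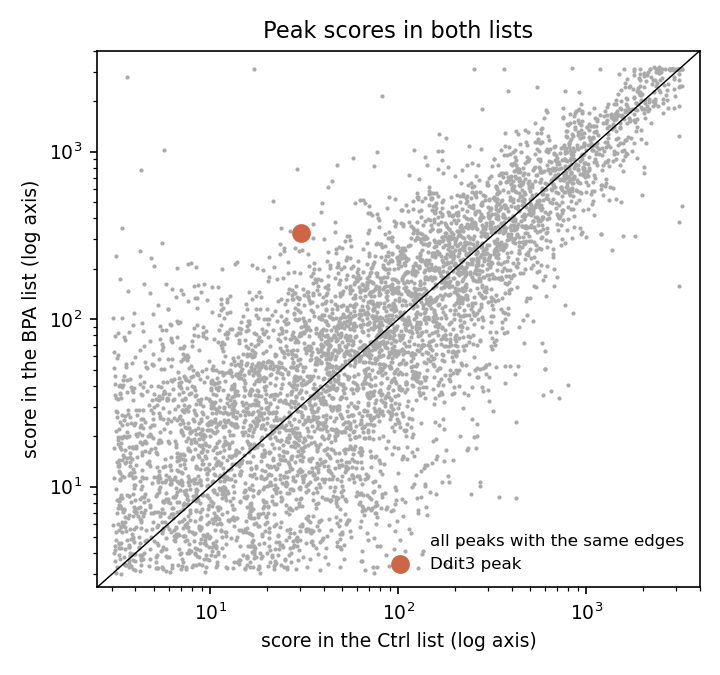
Score of each of the 5708 m6A peaks with the same edges in both lists, Ctrl list against BPA list, on log axes, 1 library per list; the line marks equal scores. The Ddit3 peak (orange) lies above the line, at 30.3 (Ctrl) and 325 (BPA).

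Of the 99 genes of the 7 pathway lists, 42 had a listed Ctrl peak, 38 a BPA peak and 35 both, beside 29.1%, 29.5% and 24.3% of the 13006 genes. Of the 9727 genes within the response genes' range of mean count, 27.4% had both, and no share was matched to the levels of the 99. By list, genes with a peak in both conditions were 9 of 15 for the eIF2 list and 7 of 11 for partners and regulators of ATF4. Such genes were 8 of 13 for the synthetases with Xpot and 7 of 17 for the unfolded protein response. They were 3 of 18 for other targets of ATF4 and CHOP with the listed relatives, 1 of 14 for amino acid synthesis and 0 of 11 for amino acid transporters.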

How the data were processed

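RNA of 4 rat hippocampal neuron samples was profiled, with 1 library per group and groups taken from the sample titles. The submitters' processing notes list HISAT2 2.0.4, STAR and cutadapt 1.9.3 without saying what each did. Per the file headers, the authors' input tables give an FPKM and a count per gene. The counts as deposited are estimated counts scaled by a library factor: divided by 1.01 (Ctrl) or 1.02 (BPA), 96.4% of those under 300 were within 0.01 of whole. Per the file headers, the deposited peak lists give a score that is 10 times the negative log10 of a p-value, an enrichment ratio, a length and an FDR in percent. The FDR was 100 at both Ddit3 entries and was not used. Quantifier, build and strand of counting are not stated in these sources; the kit was directional, per the labels' protocols.

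Counts were compared without further scaling, with a pseudocount of 1, in genes averaging at least 10 counts. Ratio intervals are exact (Clopper-Pearson) 95% binomial intervals of the reads recovered by that division, and level intervals are exact Poisson. Both reflect counting error only, as no molecular tags are described. Peak starts, counted from 0 in the files, are printed 1 higher. The members and lists were chosen with earlier results of these data known. Of each list, up to 4 genes with the largest log2 ratio in size and a mean of at least 50 counts are named. Bcl2l11, Tnfrsf10b, the single cell type markers and the relatives and partners of members were added after their values were seen. No gene was named for a like pattern, which 2 input libraries cannot give. Names and promoters are RefSeq's (GRCr8). Alternatives were other pseudocounts, filters and scalings (DESeq2 1.42.0, edgeR 4.0.16), the FPKM scale, summed rows and stricter peak rules. The ratio and its interval were tested on simulated Poisson counts with larger changes than those of the response genes. Such counts vary by counting only, so the run checked the calculation and not its fit to these libraries. Tools were Python 3.11.15, scipy 1.17.1 and R 4.3.3.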

Additional observations from a re-analysis of the deposited data

How the results depend on the processing

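Under 9 other settings for counts (a pseudocount of 0.1 or 5, genes unfiltered or averaging 50 counts, centring on the median, DESeq2 and edgeR scaling, FPKM + 1, summed rows), each of the 10 response genes kept the sign of its log2 ratio. Only 5 of the 9 (both pseudocounts, centring, edgeR scaling and FPKM + 1) could move these ratios; the filters, the DESeq2 factors (1 in both libraries) and summed rows left them as they were by construction. Trib3 ranged from 0.58 to 0.72, Ddit4 from 0.28 to 0.29 and Atf3 from -0.39 to -0.31, and 0 of 10 passed 2-fold in every setting. The number of all genes past 2-fold, 263 as reported, was 170 with a pseudocount of 5, 1946 without a filter, 52 among genes averaging 50 counts or more and 104 on the FPKM + 1 scale; these settings weigh or admit genes of low count differently. With a score of at least 100, the number of response genes with a peak in the Ctrl list was 0 in place of 1, since Ddit3 scored 30.3 there, while the BPA list kept it; with a score of at least 13 both lists kept it. The Ddit3 peak counted as shared under each overlap rule. In all, 189 of 194 recomputed values moved by no more than the counting error or by no more than 1.5 times. For the medians that error was set at 0.22 in log2, wider than any of the medians themselves. The total also includes the 4 settings that could not move the response genes, so it is not a measure of stability. Depth limits the scarce genes most: Trib3 and Atf3 rest on under 100 counts per library. No paired analysis was possible because each group holds 1 library.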
